A study of Mus musculus with 12 samples.

Results

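Monocytes and macrophages are phagocytes of the myeloid lineage. They take up particles with scavenger and lectin receptors, sense microbes with Toll-like receptors and their partners, signal through adaptors that carry tyrosine activation motifs, and digest their load in a large lysosome compartment. Granulocyte-macrophage progenitors (GMP) are their committed bone marrow precursors, and LSK cells, which are lineage-negative and carry Sca1 and c-kit, lie above GMP and hold the stem and multipotent cells. Lamtor2 encodes a subunit of the Ragulator complex, which docks nutrient signalling to the surface of late endosomes and lysosomes.

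The genes described here are 33 surface and effector genes of monocytes and macrophages, listed by name with earlier results of these arrays known. Every one was matched by its symbol to 1 probe set, and together they are 33 of the 19937 genes that the arrays measured with a single symbol. RNA was profiled on 12 Affymetrix arrays in 4 groups of 3 arrays. The LSK KO and GMP KO cells came from C57BL/6J Mx-Cre Lamtor2f/f mice, and the LSK WT and GMP WT cells from C57BL/6J Mx-Cre mice with wild-type Lamtor2, with 3 mice of each genotype. The strain labels spell these Mx1-Cre wt/wt;Lamtor2f/f and Mx1-Cre wt/wt;Lamtor2 wt/wt. All the mice, controls included, had received pIpC by intraperitoneal injection, and both populations were sorted 14 days later. pIpC induces interferon, which switches on the Mx promoter of the Cre. That promoter is not specific to blood progenitors, so the mice can lack Lamtor2 in mature blood cells and in other tissues as well. GMP were sorted as Lin-Sca1-c-kit+CD34+FcγR+ cells. No source used here states the ages of the mice, or which LSK and GMP arrays came from one mouse.

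All values are RMA signals on a log2 scale, so a difference of 1 is a 2-fold difference. Lamtor2 itself read 5.11, 5.40 and 5.77 in LSK KO arrays, against 10.39, 10.48 and 10.31 in LSK WT arrays. It read 5.53, 5.12 and 4.95 in GMP KO arrays, against 10.80, 10.82 and 10.61 in GMP WT arrays, so the labels and the targeted gene matched on all 12 arrays. Of 14 stem and multipotent markers, 13 were higher in WT LSK than in WT GMP, and 12 of 12 primary granule markers were lower (adjusted p under 0.05, limma). GMP KO replicate 1 stood apart from the other arrays of its group, with a mean correlation of 0.979 to them, and the results that turn on it are named where they occur. Detection calls were not used here. A background level was read instead from 1027 olfactory receptor genes, as the 95th percentile of their group means: 5.40 in LSK KO, 5.49 in LSK WT, 5.61 in GMP KO and 5.46 in GMP WT. Probe sets differ in how strongly they bind, so a gene under that level is described as reading at background and not as absent.

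Knockout progenitors carried higher signals for part of the macrophage list, and none of the 33 genes passed as lower. The 33 were chosen with earlier results of these arrays known, so their counts are no independent evidence of direction or excess. In LSK, 9 of the 33 genes rose (adjusted p under 0.05, limma), 0 fell and 24 did not pass. Over all genes, 2.49% passed as higher and 1.96% as lower in the same comparison. In GMP, 14 rose, 0 fell and 19 did not pass, where 5.78% of all genes passed as higher and 10.3% as lower. The median difference of the 33 genes was 0.41 in LSK and 0.54 in GMP, beside -0.01 and 0.01 for all genes. The LSK median rested partly on 1 array, since it was 0.14 without LSK KO replicate 2, while the count of genes that rose was 9 to 11 whichever array was left out. In GMP that count was 12 to 15 and the median 0.37 to 0.64, with the low end reached without GMP KO replicate 3. At an unadjusted p under 0.05 the genes past the threshold numbered 15 in LSK and 19 in GMP. At least 2-fold higher and past the threshold were 7 of the 33 genes in LSK, against 0.642% of all genes, and 9 in GMP, against 1.6%.

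The KO arrays lay wholly above the WT arrays for 15 genes in LSK and wholly below for 3, where 12.4% and 13.2% of all genes did so. In GMP they lay wholly above for 15 and wholly below for 2, where the shares of all genes were 12% and 17.6%. The genes that rose in both populations were Cd68, Mpeg1, Tyrobp, Sirpa, Cd300a, Clec7a and Emilin2. That is 7 of 33, beside 1.14% of all genes. Ly86 and F13a1 passed in LSK and not in GMP. Mrc1, Trem2, Siglec1, Pld3, Lyz2, Tlr4 and Spic passed in GMP and not in LSK. Together 16 genes rose in at least 1 population, beside 7.13% of all genes, and the remaining 17 passed in neither. RNA came from whole sorted populations, so a rise in every cell and a strong signal from a few cells cannot be told apart in any of these results.

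**Figure D1:**
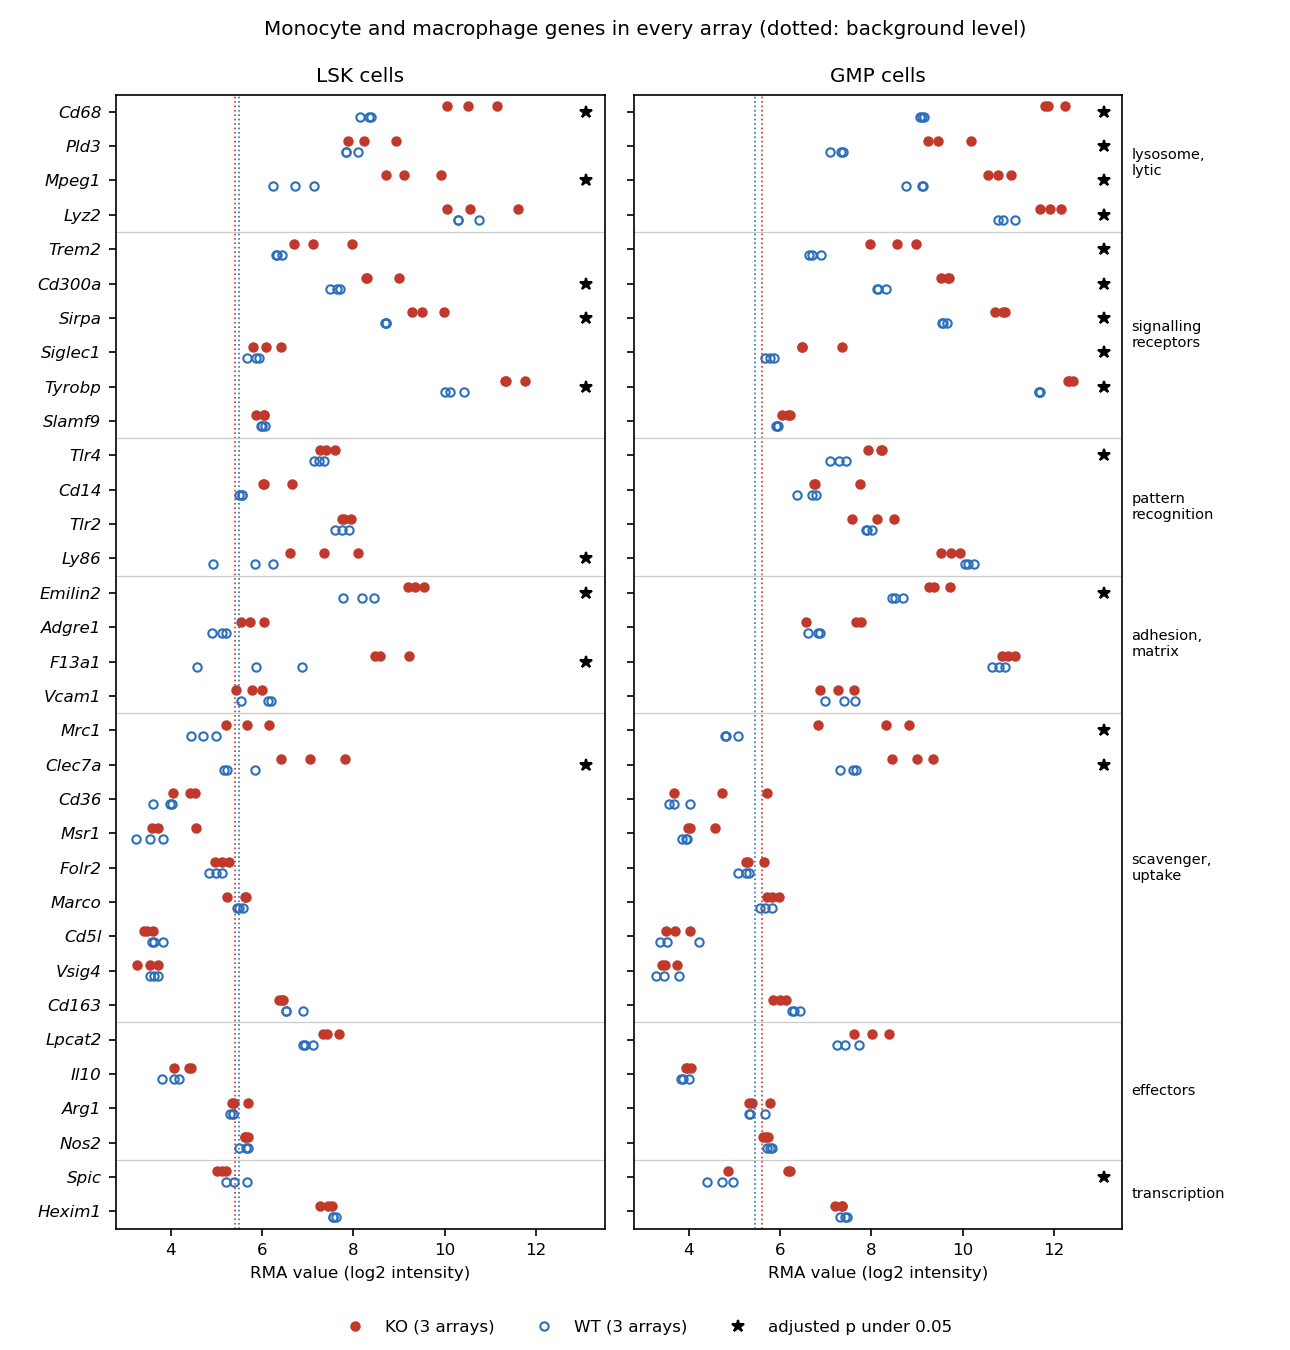
RMA value (log2 intensity, horizontal axis) of each of the 33 genes in every array, LSK cells left and GMP cells right. Filled red points are KO arrays, open blue points WT arrays, dotted lines the background level of each group, and stars mark the 9 genes in LSK and 14 in GMP with an adjusted p under 0.05, all of them with KO above WT.

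Of the 4 lysosome and lytic genes, 2 rose in LSK and 4 in GMP, with median differences of 1.35 and 2.08. For each group of genes below, the shares of all genes that passed as higher were 2.49% in LSK and 5.78% in GMP. Cd68 encodes a heavily glycosylated membrane protein of late endosomes and lysosomes that is the standard stain for macrophages. It read 10.04, 11.14 and 10.51 in LSK KO arrays, against 8.15, 8.38 and 8.34 in LSK WT arrays. It read 11.88, 11.81 and 12.25 in GMP KO arrays, against 9.07, 9.12 and 9.15 in GMP WT arrays. All KO arrays lay far above all WT arrays in both populations. The differences were 2.27 ± 0.21 in LSK and 2.87 ± 0.21 in GMP (log2, SE), that is 4.83-fold and 7.29-fold, with adjusted p of 5.25e-05 and 2.14e-06. Cd68 averaged 10.56 in LSK KO and 9.11 in GMP WT, a pair of levels that was not tested.

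Mpeg1 encodes a pore-forming protein that attacks bacteria inside phagosomes. Its values were 8.71, 9.91 and 9.12 in LSK KO arrays, against 7.12, 6.72 and 6.23 in LSK WT arrays, and 10.79, 10.56 and 11.06 in GMP KO arrays, against 9.14, 9.12 and 8.77 in GMP WT arrays. The groups did not overlap in either population. Mpeg1 rose by 2.55 ± 0.27 in LSK (adjusted p = 0.000161) and by 1.79 ± 0.27 in GMP (adjusted p = 0.00069).

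Pld3, a lysosomal exonuclease of single-stranded nucleic acids, read 9.25, 9.47 and 10.18 in GMP KO arrays, against 7.33, 7.39 and 7.10 in GMP WT arrays. It rose there by 2.36 ± 0.25, or 5.14-fold (adjusted p = 4.53e-05). In LSK it read 7.89, 8.93 and 8.24 in KO arrays, against 7.85, 7.83 and 8.09 in WT arrays. The LSK groups overlapped, and the difference of 0.43 ± 0.25 did not pass (adjusted p = 0.459).

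Lyz2 encodes lysozyme M, an enzyme of macrophage and neutrophil granules that cuts bacterial cell walls. It read 11.92, 11.69 and 12.15 in GMP KO arrays, against 11.14, 10.77 and 10.88 in GMP WT arrays, with no overlap. The difference of 0.99 ± 0.29 passed with an adjusted p of 0.0354, a call that did not hold without GMP KO replicate 1 (0.0624), GMP KO replicate 3 (0.0965), or GMP WT replicate 1 (0.0567), 2 (0.129) or 3 (0.0953), nor with eBayes set to trend and robust (0.0777). In LSK it read 10.05, 11.61 and 10.54 in KO arrays, against 10.75, 10.30 and 10.29 in WT arrays, which overlapped (0.29 ± 0.29, adjusted p = 0.751). The 15 neutrophil markers varied between arrays in both genotypes, and their part in the Lyz2 values was not tested. Their array means ran from 7.49 to 9.17 in GMP KO and from 7.54 to 9.15 in GMP WT, and from 7.31 to 8.79 in LSK KO and from 7.29 to 8.94 in LSK WT. The array highest for them was also the highest for Lyz2 in LSK KO, LSK WT and GMP WT, but not in GMP KO. None of the 15 passed in LSK (0 of 15), and in GMP 1 fell, the neutrophil surface protein gene Ly6g, with a mean of 3.93 in KO, against 5.44 in WT, both at background.

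Promoters of the 33 genes were read for 4 short motifs that macrophage transcription factors bind, in 300 bases from 250 before to 50 after the RefSeq start sites (assembly GRCm38.p6). The table of promoters held 26 promoters of 22 of the 33 genes. The AP-1 motif TGANTCA, searched on both strands as were the others, stood in 3 of the 26 promoters (11.5%) and in 7.81% of all 32851 promoters. The PU.1 motif GAGGAAGT stood in 2 (7.69%, F13a1 and Slamf9), against 3.2% of all. The MiT/TFE motif CACGTGA stood in 0 of 26, against 3.77% of all, and the large Maf core motif TGCTGAC in 0 of 26, against 4.67%. No match overlapped another motif. A match here is a run of letters, and no binding was measured. The promoter of Slamf9, which passed in neither population, has PU.1 at -8 and is not shown. F13a1 and Folr2 each have another promoter in the set, without a match. The 4 promoters below each hold a match: Cd68, which rose in both populations, has AP-1 at positions -149 and -24, and Trem2, which rose in GMP, has AP-1 at -9. F13a1, which rose in LSK, has PU.1 at 14, and Folr2, which read at background in every group, has AP-1 at -74. Positions count from 0 at the start site to the first base of the match. Capitals mark the matches. The promoters lie at chr11:69666121-69666420 on the minus strand, chr17:48346151-48346450 on the plus strand, chr13:37049164-37049463 on the minus strand and chr7:101845282-101845581 on the minus strand, in that order.
Cd68: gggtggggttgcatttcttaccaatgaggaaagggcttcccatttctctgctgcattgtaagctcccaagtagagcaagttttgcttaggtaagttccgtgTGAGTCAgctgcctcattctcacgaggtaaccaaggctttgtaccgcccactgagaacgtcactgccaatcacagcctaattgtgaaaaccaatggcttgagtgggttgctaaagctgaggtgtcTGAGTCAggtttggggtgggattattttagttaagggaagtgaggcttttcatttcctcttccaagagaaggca
Trem2: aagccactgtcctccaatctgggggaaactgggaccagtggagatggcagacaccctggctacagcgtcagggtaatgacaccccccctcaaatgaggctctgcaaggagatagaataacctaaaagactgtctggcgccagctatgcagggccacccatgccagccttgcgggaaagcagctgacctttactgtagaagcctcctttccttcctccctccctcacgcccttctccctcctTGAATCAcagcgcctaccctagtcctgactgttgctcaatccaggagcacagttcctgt
F13a1: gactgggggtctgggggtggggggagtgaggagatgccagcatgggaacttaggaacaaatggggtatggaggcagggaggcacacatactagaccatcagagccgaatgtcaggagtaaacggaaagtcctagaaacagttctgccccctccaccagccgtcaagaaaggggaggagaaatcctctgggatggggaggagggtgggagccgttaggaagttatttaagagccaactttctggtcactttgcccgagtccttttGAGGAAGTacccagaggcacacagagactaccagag
Folr2: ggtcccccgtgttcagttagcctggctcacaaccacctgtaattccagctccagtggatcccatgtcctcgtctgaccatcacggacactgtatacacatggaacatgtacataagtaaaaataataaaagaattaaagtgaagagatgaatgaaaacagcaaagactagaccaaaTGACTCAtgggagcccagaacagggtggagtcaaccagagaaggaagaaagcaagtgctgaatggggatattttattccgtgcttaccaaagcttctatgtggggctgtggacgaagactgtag

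Among the signalling and paired receptors, 3 of 6 rose in LSK and 5 of 6 in GMP. Tyrobp encodes an adaptor with an immunoreceptor tyrosine activation motif that many myeloid receptors need to signal. It read 11.34, 11.76 and 11.33 in LSK KO arrays, against 10.42, 10.12 and 10.01 in LSK WT arrays, and 12.33, 12.31 and 12.41 in GMP KO arrays, against 11.69, 11.67 and 11.67 in GMP WT arrays. No KO array overlapped a WT array. The rise was 1.29 ± 0.13 in LSK (adjusted p = 9.13e-05) and 0.67 ± 0.13 in GMP (adjusted p = 0.00328). Trem2, a lipid receptor that signals through Tyrobp, read 8.57, 7.97 and 8.98 in GMP KO arrays, against 6.71, 6.64 and 6.90 in GMP WT arrays (1.76 ± 0.28, adjusted p = 0.000913). In LSK its KO arrays, at 6.69, 7.97 and 7.10, also lay above the WT arrays, at 6.43, 6.31 and 6.33. That difference of 0.90 ± 0.28 did not pass (adjusted p = 0.096), and it passed without LSK KO replicate 1, the lowest of the 3 (1.18, adjusted p = 0.0342).

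Both inhibitory receptors Sirpa and Cd300a rose in both populations. Sirpa, the receptor for the "do not eat me" protein CD47, read 9.28, 9.97 and 9.50 in LSK KO arrays, against 8.71, 8.70 and 8.70 in LSK WT arrays (0.88 ± 0.14, adjusted p = 0.00286). In GMP it read 10.88, 10.70 and 10.92 in KO arrays, against 9.58, 9.56 and 9.66 in WT arrays (1.24 ± 0.14, adjusted p = 8.02e-05). Cd300a, an inhibitory receptor for lipids exposed on dying cells, rose by 0.91 ± 0.16 in LSK (adjusted p = 0.00493) and by 1.44 ± 0.16 in GMP (adjusted p = 6.36e-05). Its 3 GMP KO arrays, at 9.71, 9.54 and 9.69, were all above the GMP WT arrays, at 8.14, 8.33 and 8.16.

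Siglec1, a sialic acid receptor of tissue macrophages, read 6.48, 6.48 and 7.37 in GMP KO arrays, against 5.87, 5.68 and 5.79 in GMP WT arrays. It rose by 1.00 ± 0.21 (adjusted p = 0.00586), with GMP KO replicate 3 well above the other KO arrays. In LSK the difference was 0.28 ± 0.21 (adjusted p = 0.607). Slamf9, a surface receptor of the SLAM family, passed in neither population, with differences of -0.03 ± 0.09 in LSK and 0.21 ± 0.09 in GMP.

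Of the 9 scavenger and uptake receptors, 1 rose in LSK and 2 in GMP. Clec7a, the lectin receptor for fungal β-glucan, rose in both. It read 6.41, 7.81 and 7.05 in LSK KO arrays, against 5.85, 5.23 and 5.16 in LSK WT arrays, where the WT mean of 5.41 lay under the background level. The LSK KO signal was therefore at least 3.02-fold higher (fitted difference 1.68 ± 0.31, adjusted p = 0.00677). In GMP it read 9.01, 8.45 and 9.35 in KO arrays, against 7.67, 7.60 and 7.33 in WT arrays (1.41 ± 0.31, adjusted p = 0.00691).

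Mrc1, the mannose receptor of tissue macrophages, was at background in GMP WT and above it in GMP KO. It read 6.84, 8.33 and 8.83 in GMP KO arrays, against 5.09, 4.81 and 4.81 in GMP WT arrays. All 3 GMP KO arrays were above background and all 3 WT arrays under it, so the KO signal was at least 5.83-fold higher (fitted difference 3.10 ± 0.38, adjusted p = 0.000156). In LSK it read 5.20, 6.15 and 5.67 in KO arrays, against 4.70, 4.98 and 4.44 in WT arrays. The KO arrays lay above the WT arrays there too, but close to background, and the difference of 0.97 ± 0.38 did not pass (adjusted p = 0.213). It passed without GMP KO replicate 1 (0.97, adjusted p = 0.0136).

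The other 7 scavenger receptors did not pass in either population. Among them the class A receptor Msr1, the lipid receptor Cd36, the folate receptor Folr2, the complement receptor Vsig4 and the secreted macrophage protein Cd5l, read at background in all 4 groups. Their group means ran from 3.50 for Cd5l in LSK KO to 5.40 for Folr2 in GMP KO. Cd36 was uneven in GMP KO, at 3.69, 5.72 and 4.73, against 3.68, 3.57 and 4.04 in GMP WT, and 1 of the 3 KO arrays lay above the background level. Its difference of 0.95 ± 0.36 missed the threshold (adjusted p = 0.0918) and passed without GMP KO replicate 1 (1.47, adjusted p = 0.00135). The class A receptor Marco lay next to the background level in every group, with differences of -0.01 ± 0.12 in LSK and 0.16 ± 0.12 in GMP.

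Cd163, the haemoglobin scavenger receptor, was the only scavenger receptor among the 33 with lower arrays in KO of both populations. It read 6.43, 6.45 and 6.38 in LSK KO arrays, against 6.53, 6.90 and 6.52 in LSK WT arrays, and 5.84, 5.99 and 6.14 in GMP KO arrays, against 6.31, 6.43 and 6.27 in GMP WT arrays. The groups did not overlap, but the differences of -0.23 ± 0.12 in LSK and -0.35 ± 0.12 in GMP did not pass (adjusted p = 0.375 and 0.0604). The GMP difference passed without GMP KO replicate 3 (-0.42, adjusted p = 0.0359) and without LSK WT replicate 2 (-0.35, adjusted p = 0.0332).

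**Figure D2:**
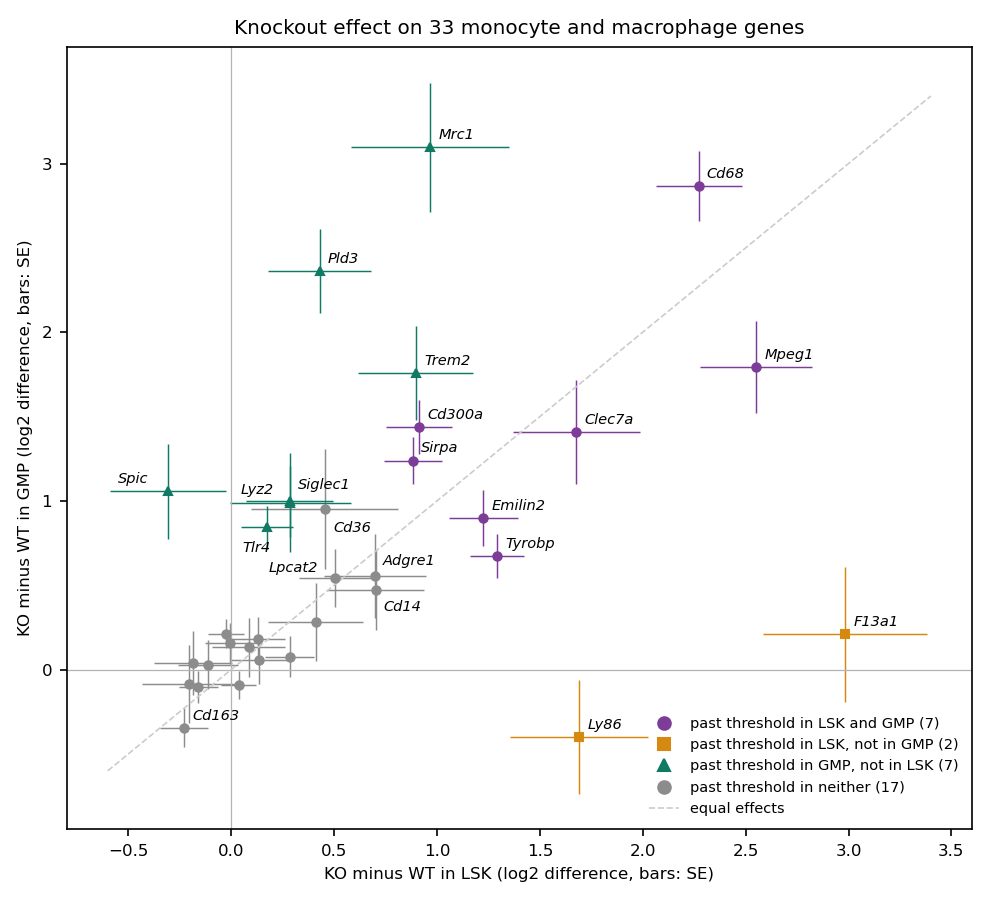
Difference KO minus WT (log2) in LSK on the horizontal axis and in GMP on the vertical axis for the 33 genes, with SE bars and the line of equal effects. In both populations 7 genes passed, 2 in LSK and not in GMP, 7 in GMP and not in LSK, and 17, near the origin apart from a few such as Cd36 and Adgre1, in neither.

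Of the 4 pattern recognition genes, 1 rose in GMP and another 1 in LSK. Tlr4, the receptor for bacterial lipopolysaccharide, read 8.24, 7.92 and 8.21 in GMP KO arrays, against 7.46, 7.29 and 7.09 in GMP WT arrays (0.84 ± 0.13, adjusted p = 0.000678). In LSK its arrays overlapped, at 7.40, 7.60 and 7.26 in KO, against 7.36, 7.13 and 7.25 in WT (0.17 ± 0.13, adjusted p = 0.603). Cd14, the co-receptor that hands lipopolysaccharide to Tlr4, did not pass, with 0.70 ± 0.24 in LSK (adjusted p = 0.131) and 0.47 ± 0.24 in GMP (adjusted p = 0.219). All 3 LSK KO arrays of Cd14, at 6.01, 6.65 and 6.05, were above the LSK WT arrays, at 5.55, 5.50 and 5.56, and the LSK difference passed without GMP KO replicate 3 (adjusted p = 0.0267). Tlr2, the receptor for bacterial lipoproteins, lay between 7.58 and 8.49 on all 12 arrays, with differences of 0.08 ± 0.18 and 0.13 ± 0.18.

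Ly86 encodes a secreted partner that Cd180, a relative of the Toll-like receptors, needs at the cell surface. It read 6.62, 8.11 and 7.34 in LSK KO arrays, against 6.23, 5.85 and 4.92 in LSK WT arrays, and rose by 1.69 ± 0.34 (adjusted p = 0.0111). In GMP it was high in both genotypes, at 9.53, 9.75 and 9.95 in KO arrays, against 10.12, 10.25 and 10.06 in WT arrays. There the KO arrays lay below the WT arrays and the difference of -0.40 ± 0.34 did not pass (adjusted p = 0.498).

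Of the adhesion and matrix genes, 2 of 4 rose in LSK and 1 of 4 in GMP. F13a1, the clotting factor XIII subunit that monocytes make, had the largest LSK difference of the 33 genes. It read 9.21, 8.47 and 8.59 in LSK KO arrays, against 6.87, 5.87 and 4.58 in LSK WT arrays. The WT arrays were widely spread but all below the KO arrays, and the rise was 2.98 ± 0.40 (adjusted p = 0.000832). In GMP the values were near one another, at 10.86, 11.004 and 11.14 in KO arrays, against 10.93, 10.81 and 10.64 in WT arrays (0.21 ± 0.40, adjusted p = 0.797). Primary granule markers of GMP moved with F13a1 in LSK. Their array means were 10.19, 9.62 and 9.66 in LSK KO, against 9.34, 8.95 and 8.67 in LSK WT, and 4 of the 12 rose, among them Ctsg, which encodes cathepsin G of granulocyte granules (1.81 ± 0.25, adjusted p = 0.00104). Their part in the F13a1 and Ly86 results was not tested.

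Emilin2, an extracellular matrix glycoprotein, rose in both populations. It read 9.55, 9.34 and 9.19 in LSK KO arrays, against 8.45, 8.18 and 7.78 in LSK WT arrays (1.23 ± 0.17, adjusted p = 0.000931). It read 9.28, 9.72 and 9.36 in GMP KO arrays, against 8.46, 8.69 and 8.52 in GMP WT arrays (0.90 ± 0.17, adjusted p = 0.00262). Adgre1, which encodes the macrophage surface marker F4/80, did not pass in either. Its LSK KO arrays, at 5.54, 6.05 and 5.73, were above the LSK WT arrays, at 5.21, 5.11 and 4.89 (0.70 ± 0.25, adjusted p = 0.153). The LSK WT mean of 5.07 was at background and the LSK KO mean of 5.77 close above it, a difference of at least 1.21-fold. In GMP, KO replicate 1, at 6.58, lay below all the WT arrays, at 6.84, 6.89 and 6.62, while KO replicates 2 and 3 read 7.66 and 7.77. Without that array the GMP difference was 0.94 (adjusted p = 0.000814) and the LSK difference passed as well (0.70, adjusted p = 0.00533). Vcam1, an adhesion ligand carried by island macrophages, did not pass, with -0.21 ± 0.23 in LSK and -0.09 ± 0.23 in GMP.

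None of the 4 polarisation effectors passed in either population. Nos2, the inducible nitric oxide synthase of classically activated macrophages, lay between 5.50 and 5.82 on all 12 arrays. Arg1, the arginase of alternatively activated macrophages, lay between 5.29 and 5.78, and Il10, which encodes an anti-inflammatory cytokine, between 3.81 and 4.43. None of the 3 differed between KO and WT past the threshold in LSK or GMP, and Il10 read at background in all groups. Arg1 read at background in LSK WT, GMP KO and GMP WT, and its LSK KO mean of 5.47 lay just above the level of 5.40. Nos2 lay close above the level in every group, with a mean of 5.69 in GMP KO, where the level was 5.61. Lpcat2, an enzyme that makes the lipid mediator platelet-activating factor, came nearest to a call among these genes. In LSK its KO arrays, at 7.69, 7.42 and 7.34, were above the WT arrays, at 6.89, 6.94 and 7.11 (0.50 ± 0.17, adjusted p = 0.14). It read 8.01, 8.38 and 7.63 in GMP KO arrays, against 7.25, 7.73 and 7.42 in GMP WT arrays (0.54 ± 0.17, adjusted p = 0.0503), and it passed without GMP KO replicate 3 (0.73, adjusted p = 0.0086) or GMP WT replicate 2 (0.67, adjusted p = 0.0417).

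Of the transcription genes, 1 of 2 rose, in GMP. Spic, a factor of splenic red pulp macrophages, read 4.86, 6.23 and 6.17 in GMP KO arrays, against 4.72, 4.96 and 4.41 in GMP WT arrays. GMP KO replicate 1 lay within the WT range and the other 2 KO arrays well above it. The WT mean of 4.70 was at background, so the KO signal was at least 1.23-fold higher (fitted difference 1.06 ± 0.28, adjusted p = 0.0214). The call did not hold without GMP KO replicate 2 (0.0692), GMP KO replicate 3 (0.0734), GMP WT replicate 1 (0.0574) or GMP WT replicate 3 (0.0884), nor with quantile normalisation repeated (0.0511) or in a fit of the 2 GMP groups alone (0.094). In LSK the Spic values were 5.11, 5.02 and 5.20 in KO arrays, against 5.21, 5.37 and 5.66 in WT arrays. There the KO arrays lay below the WT arrays, with both means at background. The LSK difference of -0.31 ± 0.28 did not pass (adjusted p = 0.712). Hexim1, an inhibitor of transcription elongation, did not pass, with -0.16 ± 0.10 in LSK and -0.10 ± 0.10 in GMP.

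Counted by level, 26 of the 33 genes lay above background in LSK KO, against 22 in LSK WT, and 26 in GMP KO, against 24 in GMP WT. Of all genes, 67.0% lay above it in LSK KO, against 65.5% in LSK WT, and 65.1% in GMP KO, against 66.6% in GMP WT. The 6 genes at background in every group were Vsig4, Msr1, Cd36, Folr2, Cd5l and Il10, and 22 were above it in all 4 groups.

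The effect of the knockout itself was compared between the populations with the interaction term of the same fit. It was larger in LSK for 2 of the 33 genes, F13a1 and Ly86, where 5.34% of all genes passed in that direction. It was larger in GMP for 3, Mrc1, Pld3 and Tlr4, where 2.64% of all genes passed. For the other 28 the difference between the effects did not pass. The effect on F13a1 was 2.77 ± 0.56 larger in LSK (adjusted p = 0.0106) and the effect on Ly86 2.09 ± 0.47 larger (adjusted p = 0.0178). For Pld3 the LSK effect minus the GMP effect was -1.93 ± 0.35 (adjusted p = 0.00652), for Mrc1 -2.13 ± 0.54 (adjusted p = 0.0301) and for Tlr4 -0.67 ± 0.18 (adjusted p = 0.0381).

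F13a1 and Pld3 kept these calls whichever array was left out. Ly86 lost its call without GMP WT replicate 2 (adjusted p = 0.0535). Mrc1 lost it without any one of LSK KO replicates 1 or 3, LSK WT replicates 1 or 2, GMP KO replicate 2 and GMP WT replicates 1, 2 or 3, with adjusted p of 0.0508 to 0.0812, and also with eBayes set to trend and robust (0.068). Tlr4 lost it without any one of LSK KO replicates 1 or 3, LSK WT replicates 1, 2 or 3, GMP KO replicates 1 or 3 and GMP WT replicates 2 or 3, with adjusted p of 0.052 to 0.102, and also with quantile normalisation repeated (0.0678) or arrays centred on their median (0.066). Leaving out LSK KO replicate 2 brought in 5 more genes with a larger effect in GMP, Cd68, Trem2, Sirpa, Lyz2 and Cd300a, with differences of -0.55 to -1.22. Spic gained a larger effect in GMP without GMP KO replicate 1 (-1.81, adjusted p = 0.000462). Tyrobp, whose interaction of 0.62 ± 0.18 missed the threshold (adjusted p = 0.0545), gained a larger effect in LSK without LSK WT replicate 1 (0.0309), with median centring (0.0228), without the dimmest 30% of genes (0.0436) and with eBayes set to trend and robust (0.03). LSK KO replicate 2 was the highest of the 3 LSK KO arrays for 7 of the 9 genes that rose in LSK. Those 9 genes averaged 8.83, 9.50 and 8.99 on the 3 LSK KO arrays, against 7.02 to 7.72 on the LSK WT arrays. The neutrophil markers were also highest on LSK KO replicate 2 among the LSK KO arrays, with means of 7.31, 8.79 and 7.61. On the LSK WT arrays they averaged 8.94, 7.67 and 7.29, and their part in these results was not tested.

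**Figure D3:**
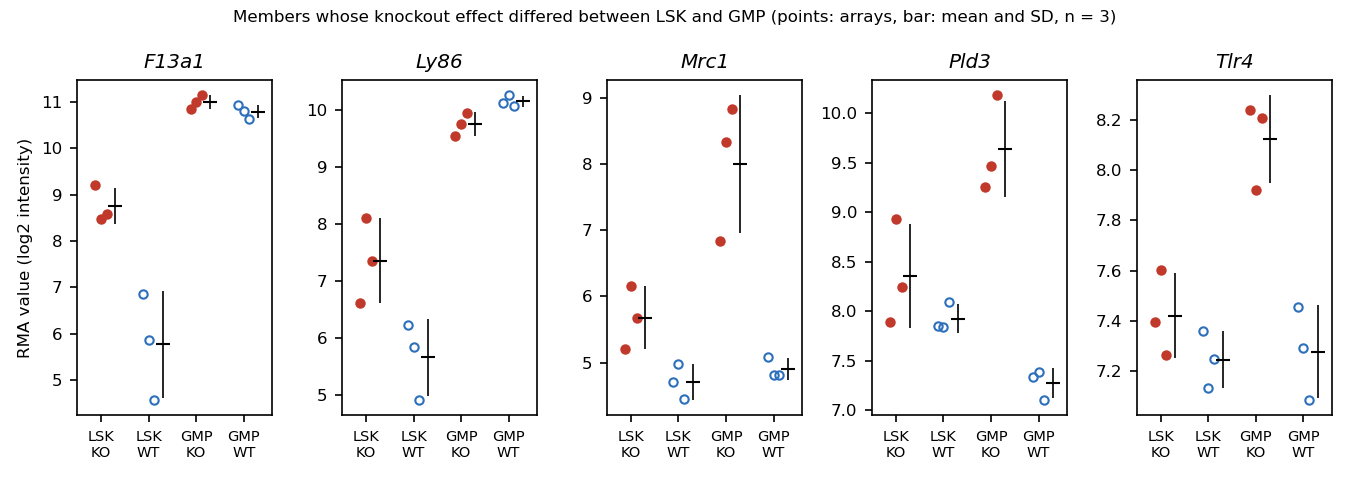
RMA values (log2 intensity, vertical axis) of the 5 genes whose knockout effect differed between LSK and GMP, with 3 arrays a group as points and the mean and SD as bars. F13a1 and Ly86 were low in LSK WT and high in both GMP groups, while Mrc1, Pld3 and Tlr4 stood out in GMP KO.

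The WT arrays show how the 33 genes differ along normal maturation. Between WT LSK and WT GMP, 11 of the 33 genes were lower in LSK and 0 higher, where 9.32% of all genes passed as lower and 10.3% as higher. The genes lower in WT LSK were F13a1 (-5.02), Ly86 (-4.48), Mpeg1 (-2.32), Clec7a (-2.12), Adgre1 (-1.71), Tyrobp (-1.50), Vcam1 (-1.39), Cd14 (-1.08), Sirpa (-0.89), Cd68 (-0.82) and Cd300a (-0.59). Of these, Adgre1 and Clec7a read at background in WT LSK. The same LSK WT arrays serve here and in the comparison with LSK KO, and likewise the GMP WT arrays in that with GMP KO. Cd68 lost this call without LSK WT replicate 1 (adjusted p = 0.053), and Cd300a without LSK WT replicate 3 (0.0701) or GMP WT replicate 2 (0.0726). Mrc1, Pld3, Trem2, Siglec1, Lyz2, Tlr4 and Spic did not pass between WT LSK and WT GMP, with differences of -0.48 for Lyz2 to 0.72 for Spic. In a fit of the 2 WT groups alone, Spic (adjusted p = 0.00459) and Pld3 (0.001055) passed as higher in WT LSK, and Trem2 (0.00998), Lpcat2 (0.0132) and Lyz2 (0.0252) as lower. Both WT means of Spic, 5.42 in LSK and 4.70 in GMP, were at background. Spic also passed without GMP KO replicate 1 (0.00161) and with array weights (0.00402), and Pld3 without LSK KO replicate 2 (0.0394), without GMP KO replicate 3 (0.0421) and with array weights (0.0259). Cd163 passed as higher in WT LSK without GMP KO replicate 1 (0.31, adjusted p = 0.0472) and with array weights (0.0297). Emilin2 passed as lower without LSK WT replicate 1 (-0.58, adjusted p = 0.0325), with median centring (0.0473) and with array weights (0.0478). Lpcat2 also passed without GMP KO replicate 2 (0.0305) or 3 (0.0313), with quantile normalisation repeated (0.036), with median centring (0.0331) and with array weights (0.039). F13a1 in LSK KO, at a mean of 8.76, read lower than in WT GMP, at 10.79, and Ly86 in LSK KO, at 7.36, lower than in WT GMP, at 10.14. These last levels were set side by side without a test.

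Most calls among macrophage genes outside the 33 were rises. Of 30 other macrophage genes, 14 rose and 0 fell in LSK, and 20 rose and 3 fell in GMP, with median differences of 1.05 and 1.68. For this list and those that follow, 2.49% of all genes passed as higher and 1.96% as lower in LSK. In GMP these shares were 5.78% and 10.3%. These lists were drawn up with results of these arrays known, so they are no independent evidence of direction. Gpnmb, a lysosomal glycoprotein of macrophages, averaged 11.42 in LSK KO, against 4.9997 in LSK WT, which is at background, and was at least 60.6-fold higher (adjusted p = 1.26e-07). It averaged 12.68 in GMP KO, against 5.48 in GMP WT (7.20 ± 0.30, adjusted p = 2.01e-08). Lgmn, a lysosomal protease, averaged 10.72 in GMP KO, against 5.68 in GMP WT (5.04 ± 0.24). The complement C3a receptor gene C3ar1 averaged 7.95 in LSK KO, against 4.60 in LSK WT, which is at background, and was at least 5.47-fold higher. Apoe, a lipid carrier that macrophages secrete, averaged 12.48 in GMP KO, against 9.12 in GMP WT. Cx3cr1, Ms4a6c and Tmem119 were the 3 that fell in GMP, Cx3cr1 to 7.40 in KO, against 8.40 in WT.

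Other monocyte genes gave fewer rises. Of 19 other monocyte genes, 4 rose and 0 fell in LSK, and 2 rose and 6 fell in GMP, with median differences of 0.14 and -0.18. Ccr2, the chemokine receptor that brings monocytes out of the marrow, averaged 7.35 in LSK KO, against 5.56 in LSK WT (1.80 ± 0.29, adjusted p = 0.00318). In GMP the fall took in Irf8, a factor that commits progenitors to monocytes, at 8.90 in KO, against 10.09 in WT (-1.19 ± 0.13, adjusted p = 7.44e-05), and Klf4, a factor needed for monocytes, at 6.39 in KO, against 7.19 in WT (-0.80 ± 0.14, adjusted p = 0.00189). Cx3cr1, already counted among the macrophage genes, is among the 6 that fell in GMP. Ctss, a protease of endosomes shared with the macrophage list, rose in both populations, to 11.23 in GMP KO, against 8.62 in GMP WT.

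Of 21 macrophage transcription factors, 4 rose and 1 fell in LSK, and 9 rose and 3 fell in GMP, with median differences of 0.15 and 0.32. Irf8 and Klf4, already counted among the monocyte genes, are among the 3 that fell in GMP. Bhlhe40 averaged 8.66 in GMP KO, against 5.40 in GMP WT (at least 9.22-fold higher, adjusted p = 3.75e-07), and its relative Bhlhe41 8.51 in GMP KO, against 4.09 in GMP WT (at least 8.28-fold higher, adjusted p = 1.12e-06). Both WT means were at background. Maf, a factor of resident macrophages, rose in both populations, by 1.19 ± 0.14 in LSK and 2.05 ± 0.14 in GMP. Cebpa, a factor of myeloid commitment, passed in LSK, at 9.15 in KO, against 7.92 in WT (1.23 ± 0.15, adjusted p = 0.0004).

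Partners of the member receptors changed in part. Of 13 genes listed with Tyrobp, most of them receptors, 3 rose and 0 fell in LSK and 3 rose and 2 fell in GMP, with median differences of 0.54 and 0.12. Plxna1, a semaphorin receptor that works with Trem2, averaged 8.15 in GMP KO, against 6.79 in GMP WT (1.36 ± 0.16, adjusted p = 0.000108). Trem3, an activating receptor of the same family as Trem2, rose in LSK, at 6.46 in KO, against 5.36 in WT, which is at background (at least 1.95-fold higher), and fell in GMP, at 8.25 in KO, against 9.06 in WT (-0.82 ± 0.22). Of 15 genes of signalling through tyrosine activation motifs, 3 rose in LSK and 4 in GMP and 0 fell, with median differences of 0.25 and -0.01. They included Fcer1g, another adaptor with a tyrosine activation motif, at 10.98 in LSK KO, against 9.20 in LSK WT (1.78 ± 0.13, adjusted p = 9.71e-06).

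Of 19 other genes of the Toll-like receptor system, 5 rose and 0 fell in LSK, and 7 rose and 2 fell in GMP, with median differences of 0.05 and 0.14. Tlr7, an endosomal receptor for RNA, averaged 7.997 in GMP KO, against 4.51 in GMP WT (at least 5.82-fold higher, adjusted p = 5.32e-06). Tlr13, another such receptor, averaged 8.83 in GMP KO, against 5.22 in GMP WT (at least 10.4-fold higher, adjusted p = 5.1e-05). Ly96, the partner of Tlr4 in binding lipopolysaccharide, averaged 7.14 in GMP KO, against 5.17 in GMP WT (at least 3.22-fold higher, adjusted p = 0.00018). All 3 WT means were at background. Cd180, the receptor that Ly86 partners, rose in both populations, by 0.75 ± 0.13 in LSK and 1.27 ± 0.13 in GMP. Ly86 itself passed in LSK and not in GMP.

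Of the 19 scavenger receptors outside the 33, 1 rose and 1 fell in LSK, and 3 rose and 2 fell in GMP, with median differences of -0.02 and 0.11. Of all genes, 2.49% passed as higher and 1.96% as lower in LSK, and 5.78% and 10.3% in GMP. Lrp1, an endocytic receptor for lipoproteins and protease complexes, rose in both, to 9.14 in GMP KO, against 7.19 in GMP WT. Stab1, a scavenger receptor of alternatively activated macrophages, averaged 8.14 in GMP KO, against 5.99 in GMP WT (2.15 ± 0.33, adjusted p = 0.000786). Clec12a, an inhibitory myeloid lectin, fell in GMP, to 9.33 in KO, against 10.74 in WT.

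Of 14 classical activation genes, 1 rose in LSK and 2 in GMP and 0 fell, with median differences of -0.08 and 0.25. Socs3, a feedback inhibitor of cytokine signalling, passed in both populations, and Tnf, the inflammatory cytokine, in GMP (0.63 ± 0.15, adjusted p = 0.0131). Of 15 alternative activation genes, 2 rose and 0 fell in LSK and 5 rose and 1 fell in GMP, with median differences of 0.17 and 0.19, where 5.78% of all genes passed as higher and 10.3% as lower in GMP. Pdcd1lg2, a ligand of the inhibitory receptor PD-1, averaged 7.50 in LSK KO, against 6.06 in LSK WT (1.44 ± 0.21, adjusted p = 0.00119). Of 12 genes of red pulp and island macrophages, 0 rose and 1 fell in LSK and 3 rose and 0 fell in GMP, with median differences of 0.06 and 0.30. The haem-degrading enzyme gene Hmox1 was the first of these by p, at 9.04 in GMP KO, against 6.62 in GMP WT (2.43 ± 0.20, adjusted p = 4.64e-06).

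**Figure D4:**
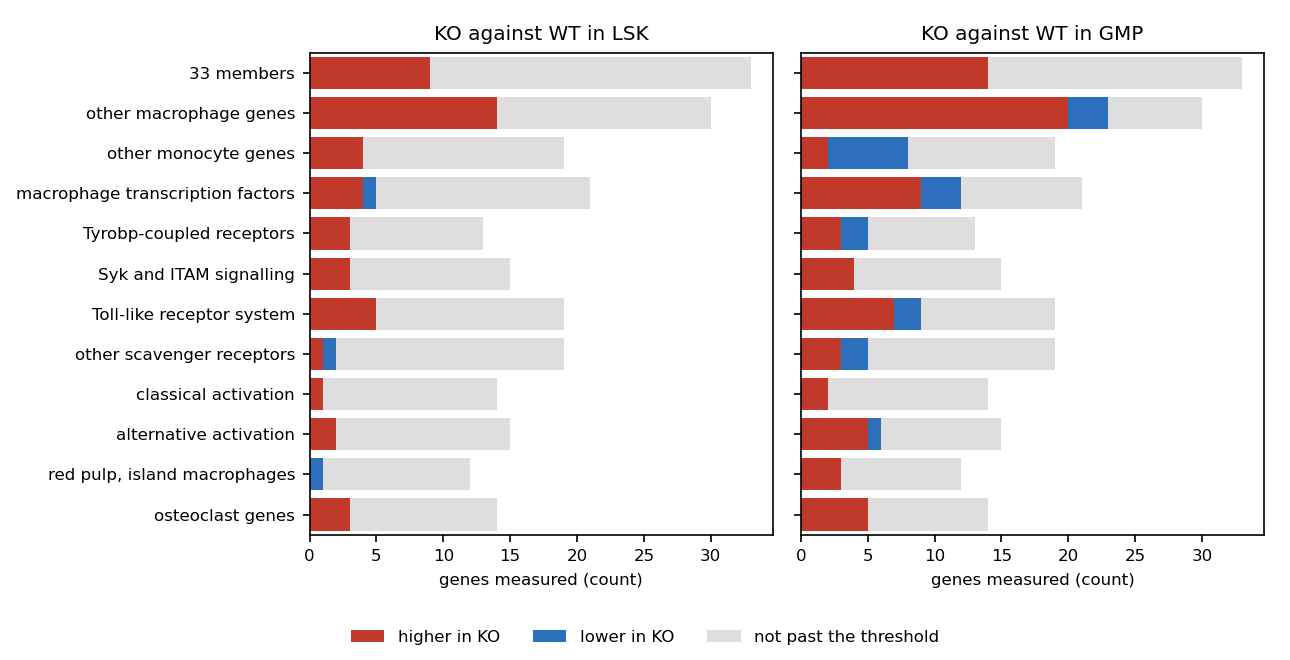
Genes measured in the 33-gene list and in 11 lists of related genes (count, horizontal axis), split into higher in KO, lower in KO and not past the adjusted p of 0.05, for LSK left and GMP right. Other macrophage genes had the most calls, 14 higher in LSK and 20 in GMP, and other monocyte genes were the only list with more falls than rises in GMP, 6 against 2.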

How the data were processed

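The deposited values are log2 intensities that the authors obtained with RMA, per the submitters' processing notes. RMA's version is not given in the sources used here, and the log2 scale was read from the range of the deposited values. Per the labels' protocols, RNA was extracted with a micro kit, amplified with the NuGEN Pico system and biotin-labelled, and such amplification can compress or distort low signals. Array medians over probe sets ran from 5.96 to 6.18 on the 12 arrays, no array duplicated another, and the number of arrays limits the precision. No column of another sample was left over.

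The annotation named 22961 of the 34760 probe sets, of which 21640 had a single symbol and 1321 several. Of the single ones, 21553 were updated through the gene ID and 87 kept their name. The set with the highest mean stood for each of the 954 genes with several, which gave 19937 genes. limma 3.58.1 (R 4.3.3) fitted the 4 groups together (lmFit, eBayes, two-sided, 8 residual and 5.16 prior degrees of freedom), with Benjamini-Hochberg adjustment over all genes and a threshold of 0.05. In the text "rose" and "fell" mean past that threshold, ± is the standard error, and "at least" sets the background level in place of a group mean under it. An exact permutation test of 3 against 3 arrays cannot go below p = 0.1, so it was not used for calls. The script was tested on simulated data.

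The 33 genes and all lists were chosen with earlier results of these data known. All 33 are named, and up to 4 genes per list, those with the smallest p past the threshold in each comparison; Ms4a6c and Tmem119 lie outside that rule and were chosen after their values were seen. A list gene that is one of the 33 was left out of its list. Whether replicate numbers pair the samples was not settled, and the main fit held no pairing. Same-numbered LSK and GMP arrays had correlated deviations of -0.18 to 0.15 in KO and -0.03 to 0.18 in WT. Different-numbered ones had -0.24 to 0.22 in KO and -0.16 to 0.06 in WT. Same-numbered KO and WT arrays, which come from different mice, had 0.04 to 0.13 in LSK and -0.15 to 0.28 in GMP. Different-numbered ones had -0.12 to 0.05 in LSK and -0.30 to 0.23 in GMP. Alternatives covered normalisation, the filter on dim genes, the choice of probe set, the variance model, array weights, the arrays fitted, a fold threshold, replicate blocks, each array left out, and the background percentile. Whether the 3 arrays of a group are 3 mice is stated only for the groups as a whole.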

Additional observations from a re-analysis of the deposited data

Results flagged for a closer look

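The knockout effect differed between LSK and GMP, by the interaction term of the limma fit over all genes, for 5 of the 33 genes. The LSK effect minus the GMP effect was 2.77 (SE 0.56, adjusted p = 0.0106) for F13a1, where LSK KO arrays were higher than LSK WT in 3 of 3 and the GMP groups overlapped. It was 2.09 (SE 0.47, adjusted p = 0.0178) for Ly86, where the 3 KO arrays lay above WT in LSK and below WT in GMP. It was -1.93 (SE 0.35, adjusted p = 0.00652) for Pld3, -2.13 (SE 0.54, adjusted p = 0.0301) for Mrc1 and -0.67 (SE 0.18, adjusted p = 0.0381) for Tlr4, each with 3 of 3 GMP KO arrays above all GMP WT arrays.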

How the results depend on the processing

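Among 2975 recomputed values of single genes over 23 alternatives, 2780 kept their direction and their side of the threshold, 72 gained a call, 48 lost one, and 75 values that were never called turned sign, with no called value turning. Over all genes the LSK count of 886 became 1734 with array weights, 1390 in a fit of the 2 groups alone, 182 with a 2-fold minimum, and 455 to 1672 with each array left out. The 1672 came without GMP KO replicate 1, with 919 genes higher and 753 lower, against 496 and 390 in the main fit. The shares of all genes set beside the LSK counts are those of the main fit. The GMP count of 3212 became 1778 in the 2-group fit, 482 with the fold minimum and 1853 to 3628 with arrays left out. The interaction count of 1591 became 371 with the fold minimum and 800 to 2006 with arrays left out, and the WT count of 3905 became 846 with the fold minimum. The 2-group fit gives no interaction. Of the 33 genes, those higher in GMP fell to 9 with the fold minimum. Those lower in GMP became 1 (Cd163) with quantile normalisation, median centring or the dimmest 30% left out, and were 0 to 1 with arrays left out. Those with a larger effect in LSK numbered 1 to 3, and those with a larger effect in GMP 1 to 8, with arrays left out. The last was 5 with array weights and 10 without both LSK KO replicate 2 and GMP KO replicate 1, an alternative chosen after seeing the data. Those higher in WT LSK than in WT GMP became 3 with array weights, 2 in the 2-group fit, 0 to 2 with arrays left out and 2 without both of those arrays. The LSK median of 0.41 became 0.60 without the dimmest genes, which drops 7 of the 33, 0.14 to 0.49 with arrays left out and 0.14 without both arrays. The GMP median was 0.37 to 0.64 with arrays left out, and the WT median of -0.23 became -0.45 without the dimmest genes. At the 99th percentile of olfactory receptor genes, 17 genes lay above background in LSK KO, 14 in LSK WT, and 11 in no group, and at their median (the 50th) 2 lay above it in no group. Median centring moved the share of calls that were higher to 24.7% in GMP (main 35.9%), 80.8% for the interaction (66.9%) and 34.3% between the WT groups (52.4%), and shifted the median of all genes between WT groups to -0.12. With the replicate number as a fixed replicate block, 852 genes passed in LSK and 3073 in GMP, Lyz2 lost its GMP call (adjusted p = 0.0532) and Spic gained an interaction call (0.0452). As a random block the consensus correlation was -9.16e-05 and no call among the 33 changed. Other calls gained include, in LSK, Adgre1, Mrc1, Cd14 and Lpcat2 in the 2-group fit (adjusted p of 0.0166 to 0.029), and Adgre1 and Mrc1 with array weights (0.0152 and 0.0329). In GMP, Adgre1 (0.00499) and Cd36 (0.00392) gained one with array weights, and Lpcat2 without the dimmest genes (0.041), with the mean of all probe sets (0.0497) and with trend and robust (0.0463). With array weights, Siglec1 (0.0375) and Spic (0.00155) gained an interaction call. The causes were not tested. The 3 arrays a group, signals at background in every group for 6 genes and unknown pairing of mice limit these results.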

Other observations

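Genes of other cells that the gates could hold were measured on the same arrays. Beside the counts below, 2.49% of all genes passed as higher and 1.96% as lower in LSK, and 5.78% and 10.3% in GMP. Of 15 mast cell, basophil and eosinophil markers, 4 rose and 0 fell in LSK, and 3 rose and 1 fell in GMP. The mast cell protease gene Cpa3 averaged 10.58 in LSK KO, against 7.91 in LSK WT (2.68 ± 0.30, adjusted p = 0.000266), and the basophil protease gene Mcpt8 averaged 11.55 in GMP KO, against 9.91 in GMP WT (1.64 ± 0.33, adjusted p = 0.00436). Of 14 osteoclast genes, 3 rose in LSK and 5 in GMP and 0 fell. Atp6v0d2, a proton pump subunit of osteoclasts and macrophages, averaged 8.87 in GMP KO, against 4.16 in GMP WT, which is at background (at least 10.6-fold higher, adjusted p = 2.93e-05).

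Of 14 dendritic cell markers, 0 rose and 3 fell in LSK, and 2 rose and 4 fell in GMP. The dendritic marker with the smallest p in GMP, Flt3, rose, at 8.84 in KO, against 7.58 in WT (1.26 ± 0.14, adjusted p = 5.13e-05). The class II antigen presentation gene H2-Aa fell there, at 5.91 in GMP KO, against 7.47 in GMP WT (-1.55 ± 0.22, adjusted p = 0.000391). Of 14 stem and multipotent markers, 0 rose and 4 fell in LSK, among them the receptor gene Tek, at 5.22 in KO, which is at background, against 6.58 in WT (at least 2.26-fold lower, adjusted p = 2.61e-05), and 1 rose and 1 fell in GMP. Of 12 primary granule markers, 0 rose and 5 fell in GMP. Of 11 T and NK cell markers, 1 rose and 1 fell in GMP and 0 of 11 passed in LSK. The one that rose, Cd4, averaged 8.41 in GMP KO, against 5.58 in GMP WT (2.83 ± 0.41, adjusted p = 0.000525). Of 9 B cell markers, 0 passed in LSK, and 1 rose and 2 fell in GMP. Of 9 erythroid markers, 1 rose and 1 fell in LSK and 0 rose and 3 fell in GMP, and of 7 megakaryocyte markers 0 rose and 2 fell in LSK and 1 rose and 1 fell in GMP. Their part in the results for the 33 genes was not tested.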
